A study of Mus musculus with 8 samples.

Results

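The 9 genes described here mark interstitial macrophages and monocytes in whole mouse lung. They were taken by name as a list: the 3 chains of complement C1q (C1qa, C1qb and C1qc), the scavenger receptor Cd163, folate receptor beta (Folr2), the growth factor receptor Csf1r, the nuclear receptor Nr1h3 and the monocyte genes Ly6c2 and Treml4. All 9 were among the 15960 genes of the deposited count table, and all 9 passed the filter on low counts that left 13517 genes for testing. RNA was sequenced from the whole lungs of C57BL/6 mice aged 3 to 5 months that had been kept for 2 weeks in 12 h of light and 12 h of darkness, with the lights left off on the day of collection at circadian time 16. The Alb-Cre group (4 libraries, replicates 1, 2, 4 and 5) carried the Cre driver alone. The BHLKO group (4 libraries, replicates 2, 3, 4 and 5) carried the same driver together with floxed alleles, labelled Hif1_alpha fl/fl and Bmal1fl/fl. The albumin promoter drives Cre in hepatocytes, so every mouse of both groups carried Cre, the targeted organ was the liver, and the lung measured here lies outside it. The series title links the model to hepatopulmonary syndrome, a lung vascular disorder of liver disease.

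Interstitial macrophages live in the lung wall around vessels, airways and nerves, apart from the alveolar macrophages of the air spaces, and are replenished in part from blood monocytes. Classical monocytes carry much surface Ly6C and enter inflamed tissue, whereas patrolling monocytes carry little Ly6C and move along the inner wall of vessels. Both kinds, and macrophages in general, carry CSF1R, and tissue macrophages are a main source of C1q, the protein that starts the classical complement pathway.

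Total counts ran from 6838427 (Alb-Cre replicate 2) to 15430372 (Alb-Cre replicate 5). Levels below are CPM, each library's counts divided by its total after TMM scaling and given per 1000000, so they compare a gene between libraries and not genes with each other. Fold changes are BHLKO against Alb-Cre on the log2 scale with their standard error (SE), from edgeR's quasi-likelihood test with Benjamini-Hochberg adjustment over all 13517 genes, and a gene was called at an adjusted p under 0.05. The labels do not state that each library is a separate animal, so the p-values rest on the spread among libraries, which may be technical. In bulk RNA, fewer cells of a type and less RNA per cell cannot be told apart. Lung epithelial markers, which check the tissue label, summed to 82976 to 96316 CPM in every library. Of the targeted genes, Arntl, which encodes BMAL1, read 6.54 ± 1.37 and 7.6 ± 2.5 CPM and Hif1a 12.8 ± 1.95 and 13.5 ± 1.38 CPM in Alb-Cre and BHLKO lung (SD, n = 4 each). Pan-leukocyte markers summed to 1011 to 1198 CPM in Alb-Cre and 614 to 932 CPM in BHLKO, and 3 of the 8 genes in that list fell (Ptprc, Coro1a and Cd52), so the members below were measured beside a lower leukocyte signal whose part in their values was not tested.

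None of the 9 members was called by edgeR, beside 306 of the 13517 tested genes (2.26%) called in the whole table, 1.23% lower and 1.04% higher in BHLKO. A single member, Treml4, had an unadjusted p under 0.05, as had 16.1% of all tested genes, and DESeq2 and limma-voom also called 0 of the 9. The log2 fold change was below 0 for 7 members (C1qa, C1qb, C1qc, Folr2, Csf1r, Ly6c2 and Treml4) and above 0 for 2 (Cd163 and Nr1h3). Over all tested genes 50.3% were below 0. The median over the members was -0.22, against -0.0017 over all tested genes. Treml4 was the only member whose CPM did not overlap between the groups, while 9.62% of all tested genes had values that did not overlap. The SE of the members ranged from 0.09 (Csf1r) to 0.44 (Ly6c2) on the log2 scale, so the same test resolved small differences in some members and only large ones in others.

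**Figure D1:**
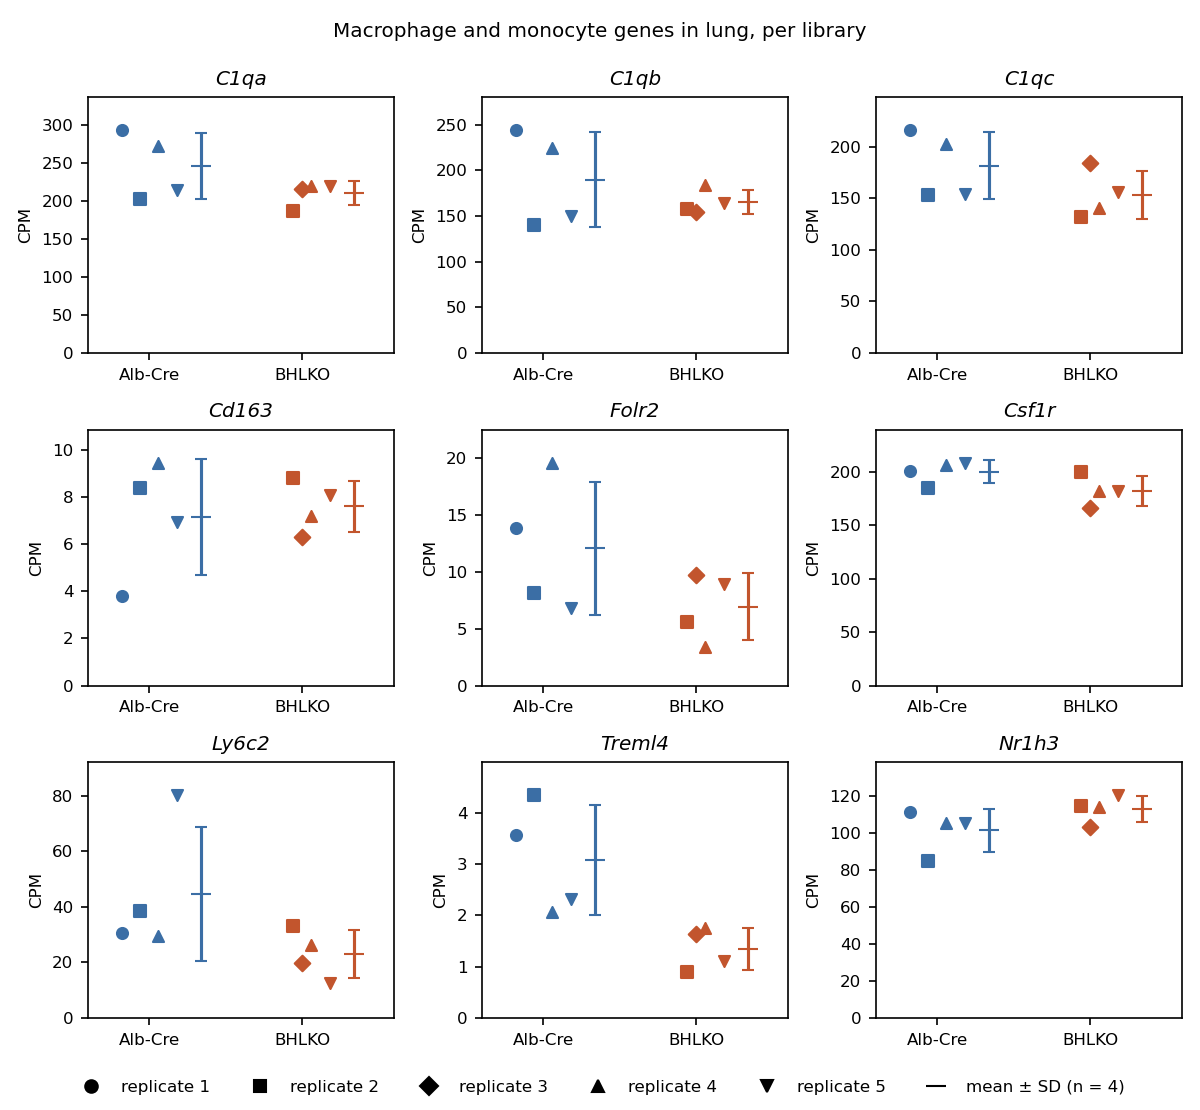
CPM of the 9 members in each of the 8 libraries, with 1 panel a gene and the CPM axis starting at 0. Points are libraries, horizontal lines are group means and error bars are SD (n = 4 each). The groups overlap in every panel except that of Treml4, where the 4 Alb-Cre libraries lie at 2.06 to 4.34 CPM and the 4 BHLKO libraries at 0.897 to 1.75 CPM.

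The members spanned a wide range of abundance. On CPM per kb of exon, C1qa had the highest level of the 9 in Alb-Cre lung at 237 ± 42.0, followed by C1qb at 174 ± 47.7 and C1qc at 93.8 ± 16.8 (SD, n = 4). Nr1h3 (40.3 ± 4.61) and Csf1r (34.6 ± 1.87) came next on the same scale, and Ly6c2 (16.3 ± 8.75) and Folr2 (7.81 ± 3.78) were lower. Treml4 (1.54 ± 0.536) and Cd163 (1.31 ± 0.449) were the lowest. Over the 8 libraries the ranges of C1qa and C1qb overlapped, as did those of Nr1h3 and Csf1r, of Csf1r and Ly6c2, of Ly6c2 and Folr2, and of Treml4 and Cd163. C1qc stood below C1qb and above Nr1h3 in level with no overlap. Exon lengths were those of all annotated exons of a gene joined, which can exceed the transcript that the lung uses and so lower the level per kb.

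Csf1r (chromosome 18, 61100598 to 61132149, + strand) encodes the receptor for CSF1 and IL-34 on monocytes and macrophages. Its level was 200.3, 184, 206 and 208 CPM in Alb-Cre replicates 1, 2, 4 and 5 and 200.1, 166, 182 and 182 CPM in BHLKO replicates 2, 3, 4 and 5. The libraries of both groups lay close together, with a coefficient of variation of 5.40% in Alb-Cre and 7.68% in BHLKO, and the ranges overlapped. The means were 199.8 ± 10.8 and 182 ± 14.0 CPM (SD, n = 4 each), and the log2 fold change was -0.13 ± 0.09 (SE; edgeR adjusted p = 0.496). As a ratio this is 0.912 with a 95% interval of 0.801 to 1.04.

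Nr1h3 (chromosome 2, 91184061 to 91202834, - strand) encodes LXR alpha, a nuclear receptor for oxidised sterols that controls cholesterol efflux genes in macrophages. It read 111, 84.6, 105 and 105 CPM in Alb-Cre and 114, 103, 114 and 120.2 CPM in BHLKO, in the same order of replicates as above. Alb-Cre replicate 2 was the lowest library, and 3 of the 4 BHLKO libraries lay above every Alb-Cre library. The means of 101 ± 11.6 and 113 ± 7.11 CPM gave a log2 fold change of 0.15 ± 0.10 (SE, n = 4 each; edgeR adjusted p = 0.481).

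C1qa (chromosome 4, 136895917 to 136898803), C1qc (136889804 to 136893065) and C1qb (136880129 to 136886187) lie next to each other on the - strand. Each encodes 1 of the chains from which the C1q hexamer is assembled. C1qa was at 293, 204, 273 and 215 CPM in Alb-Cre and at 187, 217, 219.7 and 219.6 CPM in BHLKO. Alb-Cre replicates 1 and 4 lay above every BHLKO library, and replicates 2 and 5 lay within the BHLKO range. C1qb showed the same order of Alb-Cre libraries at 244, 140.5, 225 and 150.3 CPM, against 158, 155, 184 and 164 CPM in BHLKO. C1qc was at 216, 153, 202 and 154 CPM in Alb-Cre and at 131, 184, 141 and 156 CPM in BHLKO, again with Alb-Cre replicates 1 and 4 highest.

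The group means of C1qa were 246 ± 43.7 and 211 ± 15.8 CPM, with a log2 fold change of -0.22 ± 0.12 (SE, n = 4 each; edgeR adjusted p = 0.360). C1qb (-0.20 ± 0.16) and C1qc (-0.25 ± 0.13) had fold changes of like size, with edgeR adjusted p of 0.594 and 0.382. For none of the 3 did the difference exceed the spread between libraries. Within a library the ratio of C1qb to C1qa counts stayed between 0.690 and 0.842, and that of C1qc to C1qa between 0.641 and 0.849. Over the 8 libraries, which share their depth and scaling across genes, log2 CPM of C1qa correlated with that of C1qb (Pearson r 0.91, Spearman rho 0.86) and of C1qc (0.89 and 0.74), and C1qb with C1qc (0.71 and 0.50). These values are descriptions of 8 libraries.

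The windows of C1qb and C1qc from 250 bases before to 50 after the start are shown because the chains varied together. They are RefSeq sequences of the GRCm38.p6 assembly, matched by symbol, and the table held a window for 7 of the 9 members. Capitals mark the core GAGGAA of the myeloid factor PU.1 and the half-site TGCTGA of the MAF factors, which both act in macrophages. Both strands were searched, and no match to the first motif overlapped a match to the second in any member's window. The windows are chr4:136886151-136886450 for C1qb and chr4:136892865-136893164 for C1qc, both on the - strand.
C1qb: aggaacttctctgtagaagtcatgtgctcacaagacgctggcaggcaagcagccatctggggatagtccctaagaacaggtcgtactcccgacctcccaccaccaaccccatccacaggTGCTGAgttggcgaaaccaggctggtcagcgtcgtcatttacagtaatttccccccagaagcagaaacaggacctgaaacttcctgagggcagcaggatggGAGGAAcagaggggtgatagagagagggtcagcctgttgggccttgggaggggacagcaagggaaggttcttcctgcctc
C1qc: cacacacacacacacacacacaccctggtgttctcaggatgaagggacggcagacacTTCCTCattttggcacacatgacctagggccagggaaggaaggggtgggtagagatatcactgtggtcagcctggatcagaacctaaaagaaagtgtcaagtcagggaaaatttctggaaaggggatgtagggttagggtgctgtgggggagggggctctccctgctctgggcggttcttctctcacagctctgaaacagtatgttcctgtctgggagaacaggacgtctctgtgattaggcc

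The C1qb window held GAGGAA at bases -30 to -25 from the start and TGCTGA at -131 to -126. The C1qc window held the PU.1 core on the other strand, as TTCCTC, at -193 to -188. Of 32851 windows of the same length over the genome, 9289 (28.3%) held the PU.1 core and 6401 (19.5%) held the MAF half-site on either strand. In a pairwise alignment 151 of 264 aligned bases (57.2%) were identical between C1qb and C1qc. A match describes letters and is not a measured binding site.

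Cd163 (chromosome 6, 124304656 to 124330527, + strand) encodes the receptor through which macrophages take up haptoglobin bound to hemoglobin. It read 3.79, 8.38, 9.44 and 6.95 CPM in Alb-Cre and 8.80, 6.28, 7.21 and 8.08 CPM in BHLKO. Alb-Cre replicate 1 was the lowest library, and the other 7 lay between 6.28 and 9.44 CPM. The means of 7.14 ± 2.45 and 7.59 ± 1.09 CPM gave a log2 fold change of 0.10 ± 0.26 (SE, n = 4 each; edgeR adjusted p = 0.893), which was -0.12 without Alb-Cre replicate 1. Hmox1, the heme-degrading enzyme that acts after this uptake, was singled out after its values were seen: it too was lowest in Alb-Cre replicate 1, at 13.7 CPM beside 36.4 to 69.7 CPM in the other 7 libraries. Other genes of heme handling and scavenging were not lowest there. The haptoglobin gene Hp and Blvrb were at 1217.5 and 89.3 CPM in Alb-Cre replicate 1 and at 919 and 62.7 CPM in Alb-Cre replicate 2.

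Folr2 (chromosome 7, 101839988 to 101857194, - strand) encodes a folate receptor found on resident tissue macrophages. It read 13.8, 8.09, 19.6 and 6.82 CPM in Alb-Cre and 5.62, 9.72, 3.40 and 8.93 CPM in BHLKO. Alb-Cre replicates 1 and 4 were again the highest, while replicates 2 and 5 lay within the BHLKO range. The means were 12.1 ± 5.85 and 6.92 ± 2.94 CPM, with a log2 fold change of -0.80 ± 0.38 (SE, n = 4 each; edgeR adjusted p = 0.342) and a 95% interval of -1.65 to 0.05. Folr2 correlated with C1qc over the 8 libraries (Pearson r 0.87, Spearman rho 0.93), as a description.

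The 2 libraries in which the C1q chains and Folr2 were high also held the most adipocyte RNA. A list of 6 adipocyte markers summed to 2253 and 1580.2 CPM in Alb-Cre replicates 1 and 4, to 207 and 287 CPM in Alb-Cre replicates 2 and 5, and to 277 to 1068 CPM in BHLKO. The part of adipose tissue in the C1q and Folr2 values was not tested. With Alb-Cre replicates 1 and 4 left out together, an alternative added after the data were seen, the log2 fold changes were 0.01 for C1qa, 0.18 for C1qb, -0.01 for C1qc and -0.10 for Folr2. Treml4 was at -1.28 and Ly6c2 at -1.38 in the same fit, and neither passed (edgeR adjusted p = 0.438 and 0.409). The libraries left out were the 2 highest of Alb-Cre for the C1q chains and Folr2 and the 2 lowest for Ly6c2. The shifts of these genes were thus set by the choice of libraries and are not a test. Other macrophage genes went both ways. Cd5l, of the heme and scavenger list, was singled out after its values were seen. It was highest in Alb-Cre replicates 1 and 4, at 7.66 and 5.23 CPM. In Alb-Cre replicates 2 and 5 Cd5l was at 1.59 and 0.662 CPM, and in BHLKO at 0.571 to 4.59 CPM. Aif1 was also highest in Alb-Cre replicates 1 and 4, at 12.3 and 14.7 CPM, beside 8.82 and 11.6 CPM in replicates 2 and 5. Some others were not high in both of these libraries. Cd163 was lowest in Alb-Cre replicate 1, at 3.79 CPM, and highest in Alb-Cre replicate 4, at 9.44 CPM. Stab1, a scavenger receptor singled out after its values were seen, was at 143 and 139 CPM in Alb-Cre replicates 1 and 4. In Alb-Cre replicates 2 and 5 Stab1 was at 160.3 and 187 CPM.

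**Figure D2:**
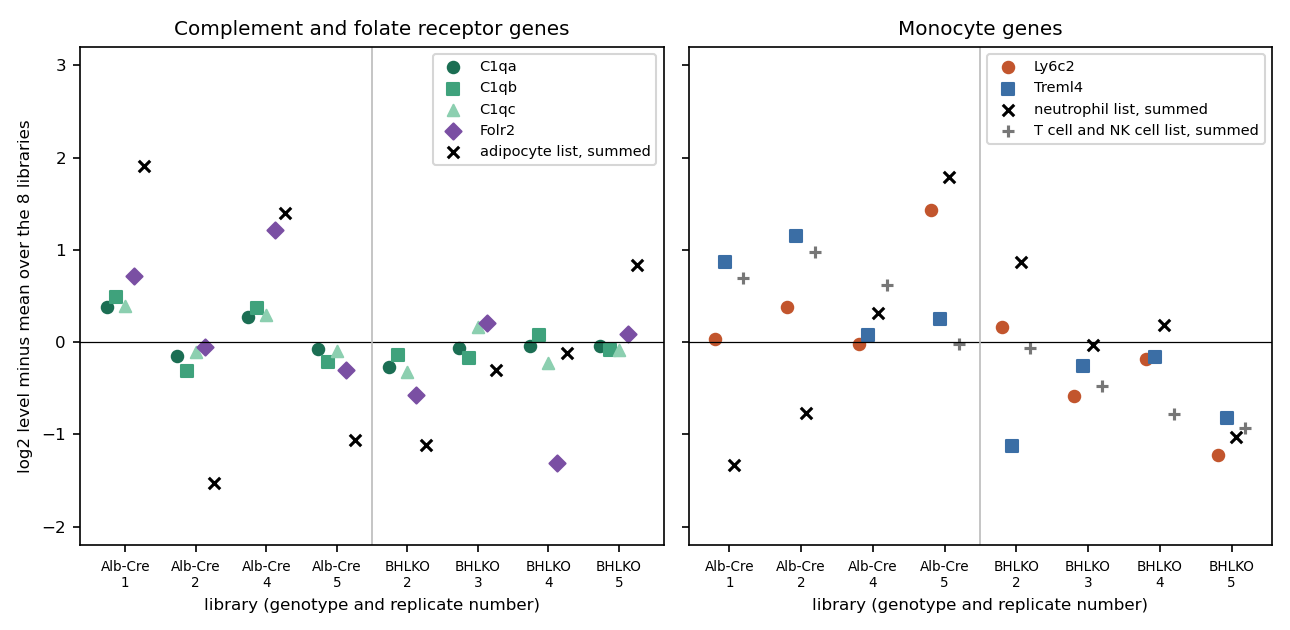
Log2 level of each gene in each of the 8 libraries minus its own mean over them, with the C1q chains, Folr2 and the summed adipocyte list on the left and Ly6c2, Treml4 and the summed neutrophil and T and NK cell lists on the right. Alb-Cre replicates 1 and 4 are high for the C1q chains, Folr2 and adipocyte markers, and Alb-Cre replicate 5 is high for Ly6c2 and neutrophil markers.

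Ly6c2 (chromosome 15, 75108158 to 75111970, - strand) encodes a GPI-anchored surface protein of the Ly6 family, part of the Ly6C antigen of classical monocytes. It read 30.5, 38.6, 29.3 and 80.1 CPM in Alb-Cre and 33.2, 19.9, 26.1 and 12.8 CPM in BHLKO. Alb-Cre replicate 5 stood above the other 7 libraries, and BHLKO replicate 2 lay within the Alb-Cre range. The means of 44.6 ± 24.0 and 23.0 ± 8.72 CPM gave a log2 fold change of -0.96 ± 0.44 (SE, n = 4 each; edgeR adjusted p = 0.352) with a 95% interval of -2.01 to 0.09. Without Alb-Cre replicate 5 the log2 fold change was -0.51 ± 0.27 (edgeR adjusted p = 0.378). The neutrophil marker list was highest in the same library, at 639 CPM beside 73.3 to 337 CPM in the other 7, with S100a8 at 120.2 CPM and the neutrophil growth factor receptor Csf3r at 29.7 CPM, while the defining marker Ly6g was at 0.662 CPM there and at 0 in 5 libraries. Some other genes of the list were not highest there: the granule proteins Camp and Ngp were at 0.464 and 0.397 CPM in Alb-Cre replicate 5 and at 42.7 and 49.8 CPM in BHLKO replicate 2, and Ltf was at 25.8 CPM against 171 CPM in Alb-Cre replicate 4. The part of neutrophil RNA in the Ly6c2 value was not tested.

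The neighbouring gene Ly6c1 (chromosome 15, 75044018 to 75048830, - strand) encodes a near-identical protein and is known for its expression in endothelium. Of the 2733 stretches of 50 bases in Ly6c2 transcripts, 379 (13.9%) occurred in Ly6c1 as well, and 21.5% of the stretches in Ly6c1 occurred in Ly6c2, so reads there could be lost or given to the wrong gene. Ly6c1 was far more abundant, at 770 ± 94.7 CPM in Alb-Cre lung (SD, n = 4), so even a small share of its reads given to Ly6c2 would weigh in the Ly6c2 values, which are uncertain. The log2 fold change of Ly6c1 was 0.07 (edgeR adjusted p = 0.796). Ly6c2 counts amounted to 3.99% to 8.85% of Ly6c1 counts in Alb-Cre and to 1.80% to 3.83% in BHLKO. These percentages did not overlap between the groups, but the gap from 3.83% to 3.99% was narrow and Ly6c2 CPM itself overlapped. How often the ratio of other gene pairs separates the groups was not examined.

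The start windows of both genes are shown because the neighbours share sequence and differ in level. The windows listed first in RefSeq (GRCm38.p6, - strand) are chr15:75111922-75112221 for Ly6c2 and chr15:75048788-75049087 for Ly6c1, with the PU.1 core on either strand in capitals.
Ly6c2: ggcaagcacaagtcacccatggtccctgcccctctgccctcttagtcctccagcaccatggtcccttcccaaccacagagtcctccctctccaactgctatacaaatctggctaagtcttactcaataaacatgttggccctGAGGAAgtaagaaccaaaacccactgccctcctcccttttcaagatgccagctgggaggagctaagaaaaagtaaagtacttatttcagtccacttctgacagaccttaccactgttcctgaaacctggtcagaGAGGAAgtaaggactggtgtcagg
Ly6c1: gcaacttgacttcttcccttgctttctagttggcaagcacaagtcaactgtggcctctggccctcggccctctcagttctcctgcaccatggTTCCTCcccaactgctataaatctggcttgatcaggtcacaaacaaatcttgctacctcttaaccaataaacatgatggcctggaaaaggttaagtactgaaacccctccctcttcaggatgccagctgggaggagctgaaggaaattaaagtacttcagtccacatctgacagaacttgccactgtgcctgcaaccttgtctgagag

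The windows were identical at 208 of 266 aligned bases (78.2%). In the printed windows Ly6c2 held GAGGAA at -108 to -103 and again at 27 to 32 after the start, and Ly6c1 held TTCCTC at -158 to -153. The printed Ly6c1 window stops inside a further GAGGAA. Another listed Ly6c1 window, from a start further downstream, held that match at -127 to -122 and TTCCTC at 14 to 19. This GAGGAA lies in the same shared stretch as the Ly6c2 match at 27 to 32, so the neighbours do not differ there. Neither printed window held the MAF half-site.

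Treml4 (chromosome 17, 48264295 to 48275360, + strand) encodes a TREM-like receptor of the myeloid lineage which, in mice, is found on patrolling monocytes and some macrophages and dendritic cells and amplifies signals of the RNA sensor TLR7. It read 3.57, 4.34, 2.06 and 2.32 CPM in Alb-Cre and 0.897, 1.63, 1.75 and 1.11 CPM in BHLKO. Every Alb-Cre library lay above every BHLKO library, with Alb-Cre replicates 1 and 2 highest and the gap between the groups narrow. The values rested on few reads, with 48, 30, 24 and 35 counts in Alb-Cre and 11, 19, 17 and 13 in BHLKO. The means were 3.07 ± 1.07 and 1.35 ± 0.411 CPM (SD, n = 4 each), and the log2 fold change was -1.17 ± 0.41 (SE) with a 95% interval of -2.05 to -0.30. The unadjusted edgeR p was 0.0116 and the adjusted p over all tested genes was 0.161, so Treml4 did not pass. Its adjusted p lay between 0.0999 (DESeq2) and 0.438 over the alternatives tried. The T cell and NK cell list, plotted beside Treml4, summed to 158, 192, 149 and 96.0 CPM in Alb-Cre and to 93.5, 70.1, 57.0 and 51.0 CPM in BHLKO, so it too did not overlap between the groups, and its part in the Treml4 value was not tested.

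The Treml4 window is shown because this was the member whose groups did not overlap. It is chr17:48264045-48264344 of GRCm38.p6, + strand, with the PU.1 core in capitals.
Treml4: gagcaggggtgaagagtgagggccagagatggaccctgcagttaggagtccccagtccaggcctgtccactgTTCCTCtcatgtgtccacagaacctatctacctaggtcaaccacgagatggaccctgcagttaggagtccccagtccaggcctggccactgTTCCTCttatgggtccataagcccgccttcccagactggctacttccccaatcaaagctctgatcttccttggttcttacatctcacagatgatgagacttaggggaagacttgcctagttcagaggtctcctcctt

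TTCCTC, the PU.1 core on the other strand, occurred at -178 to -173 and at -87 to -82 from the start. Of the windows not printed, that of Folr2 listed first held the MAF half-site at -220 to -215, and another Folr2 window at -19 to -14. The Nr1h3 window listed first held neither motif, and another Nr1h3 window held the PU.1 core at 11 to 16 after the start. The window of Cd163 held neither motif.

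Companion genes of each role were taken from 10 lists. Of 141 distinct companion genes 126 were tested, and 10 of these were called (7.94%, against 2.26% of all tested genes), 7 lower and 3 higher in BHLKO, with a median log2 fold change of -0.09. The lists were chosen with earlier results of these data known, so the shares given for them are descriptions and not a test. Called genes and the genes with the smallest p in each list are named below.

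Of the 13 tested patrolling monocyte companions 3 fell, 0 rose and 10 did not pass. The log2 fold change was below 0 for 9 and above 0 for 4, with a median of -0.76. Beside this, the medians were -1.14 for markers of T and NK cells and -2.08 for those of B and plasma cells. Cx3cr1, the fractalkine receptor by which patrolling monocytes persist, read 5.58, 6.94, 7.81 and 6.23 CPM in Alb-Cre and 1.79, 2.93, 2.68 and 2.38 CPM in BHLKO. The groups were well apart, and its mean fell 2.71-fold, from 6.64 ± 0.959 to 2.44 ± 0.488 CPM (SD, n = 4 each; log2 fold change -1.44 ± 0.27, SE; edgeR adjusted p = 0.0112). Itgal, the LFA-1 integrin chain used for crawling on endothelium, fell from 42.3 ± 5.18 to 25.0 ± 5.83 CPM (-0.76 ± 0.16; edgeR adjusted p = 0.0165). Fcgr4, an activating IgG receptor, fell from 9.77 ± 2.82 to 4.23 ± 1.40 CPM (-1.20 ± 0.28; edgeR adjusted p = 0.0312).

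In 6 of the 13 the groups did not overlap and BHLKO was lower, against 4.99% of all tested genes in that direction: Cx3cr1, Itgal and Fcgr4, and Spn (-0.76, edgeR adjusted p = 0.0724), Adgre4 (-0.89, 0.159) and Cd300e (-0.79, 0.236), which did not pass. Lymphocytes also express Itgal and Spn and natural killer cells Cx3cr1, and in the T cell and NK cell list 4 of 12 genes (Cd3d, Cd4, Cd8a and Cd6) fell. The part of lymphocytes in these values was not tested. Nr4a1, the factor on which patrolling monocytes depend, was singled out after its values were seen and did not pass: it ran from 57.3 to 346 CPM in Alb-Cre and from 160.1 to 445 CPM in BHLKO (1.0 ± 0.62, SE; edgeR adjusted p = 0.502). Eno3 (0.37), Cebpb (0.25) and Ace (0.02) were also above 0 and did not pass.

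Among 10 classical monocyte companions S100a4 fell, 0 rose and 9 did not pass. The log2 fold change was below 0 for 5 and above 0 for 5, with a median of -0.02. S100a4, a calcium-binding protein of motile cells that lymphocytes and fibroblasts also make, was at 86.6, 77.6, 92.8 and 90.6 CPM in Alb-Cre and 55.2, 68.3, 53.8 and 39.8 CPM in BHLKO. All BHLKO libraries were below all Alb-Cre libraries (log2 fold change -0.68 ± 0.13, SE, n = 4 each; edgeR adjusted p = 0.0137). Ms4a4c was at -1.33 and did not pass (edgeR adjusted p = 0.175). Hp was above 0, at 0.27, and did not pass (edgeR adjusted p = 0.236). Chil3, singled out after its values were seen and also in the alveolar macrophage list, was at 0.87 without passing (edgeR adjusted p = 0.329).

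Of 18 interstitial macrophage companions 1 rose, 1 fell and 16 did not pass, with 15 below 0 and a median of -0.18. The gene that fell was Cx3cr1, described above. The gene that rose was Lyve1, a hyaluronan receptor of perivascular macrophages that lymphatic endothelium also makes, from 235 ± 73.1 to 475 ± 59.6 CPM (SD, n = 4 each; log2 fold change 1.01 ± 0.20, SE; edgeR adjusted p = 0.0298). Its libraries read 176, 236, 190.4 and 338 CPM in Alb-Cre and 472, 399, 485 and 544 CPM in BHLKO, without overlap. Aif1, an actin-binding protein of macrophages, went from 11.9 ± 2.41 to 5.39 ± 2.64 CPM without overlap and did not pass (-1.14, edgeR adjusted p = 0.0680), and Cd14, the lipopolysaccharide co-receptor, was at 0.34 (0.232).

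**Figure D3:**
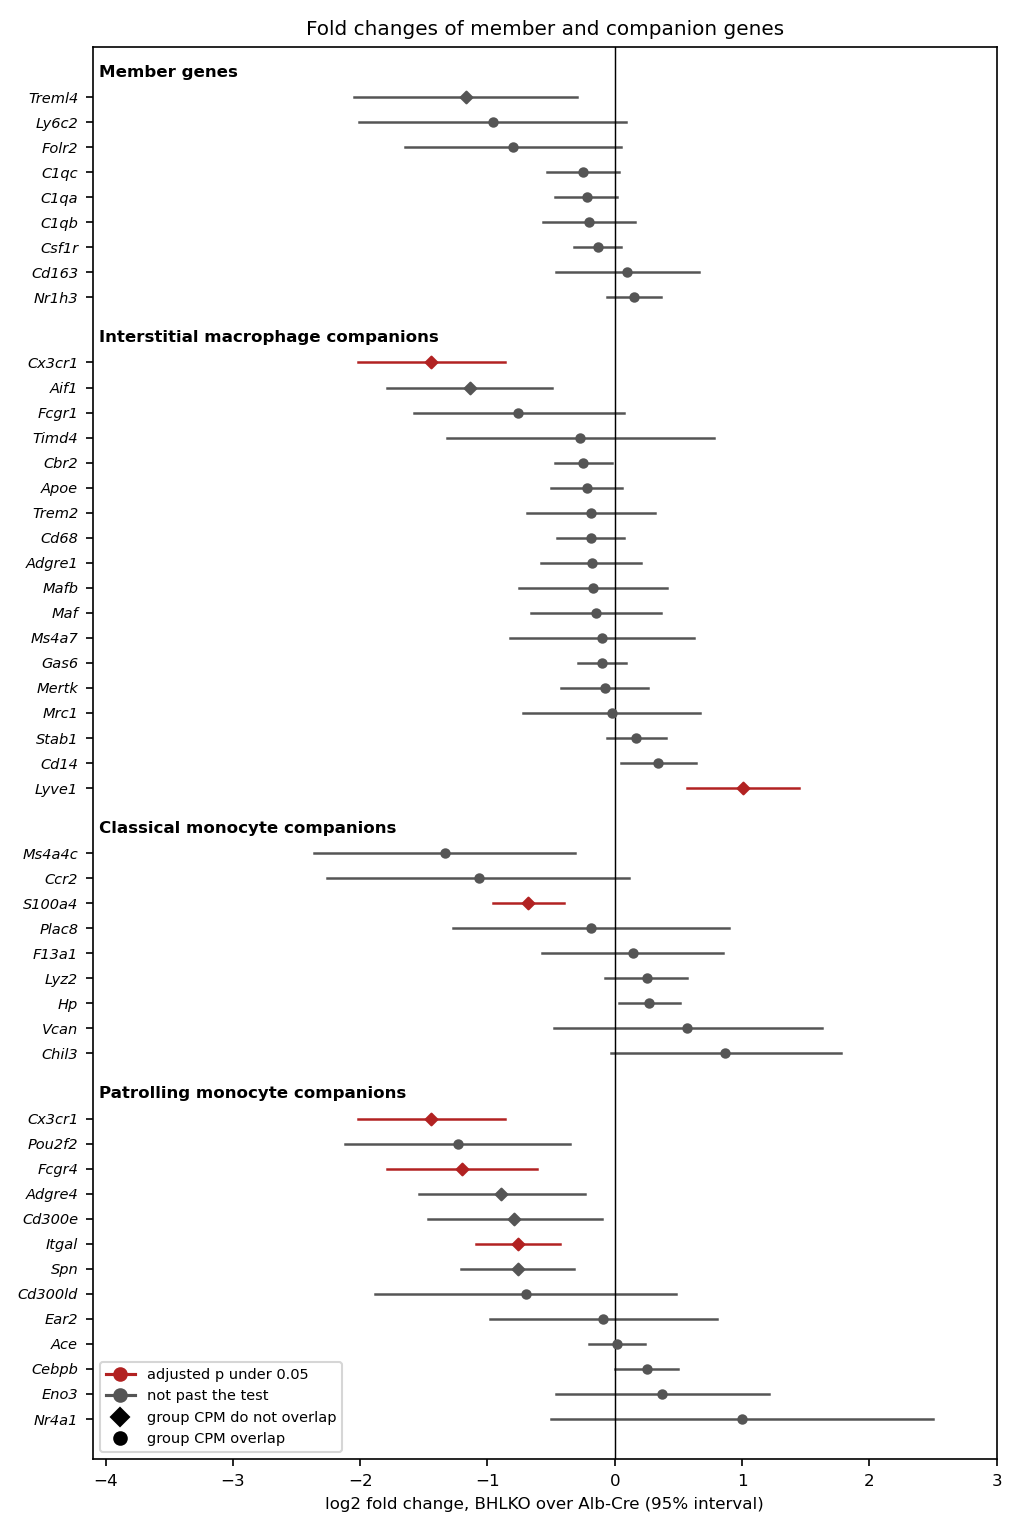
Log2 fold change of BHLKO against Alb-Cre with 95% intervals for the 9 members and for interstitial macrophage, classical monocyte (9 of the 10 tested) and patrolling monocyte companions. Red marks passed an edgeR adjusted p under 0.05, grey marks did not, and diamonds mark genes whose CPM did not overlap between the groups. The interval of every member except Treml4 crosses 0, and the called genes are Cx3cr1, Itgal, Fcgr4 and S100a4 below 0 and Lyve1 above 0.

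Among 17 ligands of CSF1R and regulators of myeloid cells 2 fell, 0 rose and 15 did not pass (median -0.18). Ptpn6, the phosphatase SHP-1 that restrains signalling in blood cells, read 76.7, 75.2, 82.3 and 80.0 CPM in Alb-Cre and 46.7, 49.8, 56.2 and 48.3 CPM in BHLKO. The groups were far apart and each was tight (log2 fold change -0.65 ± 0.09, SE, n = 4 each; edgeR adjusted p = 0.00164). Irf5, a factor of inflammatory macrophages and B cells, fell from 35.4 ± 5.48 to 23.0 ± 2.45 CPM (-0.63 ± 0.14; edgeR adjusted p = 0.0254). Spi1, which encodes PU.1, went from 48.9 ± 14.6 to 34.1 ± 4.58 CPM with overlap and did not pass (-0.53, edgeR adjusted p = 0.175). The ligands themselves, singled out after their values were seen, were at 87.9 and 92.2 CPM for Csf1 (0.07, edgeR adjusted p = 0.782) and at 25.9 and 25.3 CPM for Il34 (-0.04, 0.940).

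No gene was called by edgeR among 18 further complement genes (median 0.10), DESeq2 and limma-voom also called 0, and 0 had an unadjusted p under 0.05. C3, the central complement protein, was singled out after its values were seen, at 541 ± 139 and 650 ± 53.9 CPM (0.26, edgeR adjusted p = 0.495). Of 17 genes of heme handling and scavenging around CD163 0 were called by edgeR, 5 had an unadjusted p under 0.05, and DESeq2 called 1 and limma-voom 0 (median 0.11). Fth1, the ferritin heavy chain, had the smallest p of that list (0.33, edgeR adjusted p = 0.0782). Slc11a1, the phagosomal metal transporter (-0.77, 0.135), and Cd36, a scavenger receptor that capillary endothelium also makes (0.23, 0.226), did not pass either.

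Of 6 folate transport genes 1 fell, 0 rose and 5 did not pass. Izumo1r, a relative of the folate receptors found on regulatory T cells, fell from 3.48 ± 2.24 to 0.769 ± 0.41 CPM (log2 fold change -2.18 ± 0.53, SE, n = 4 each; edgeR adjusted p = 0.0404). Folr1, the epithelial folate receptor, went the other way from 1.49 to 3.17 CPM and did not pass (1.13, edgeR adjusted p = 0.157).

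In the Ly6 family 0 of 10 genes were called by edgeR and by limma-voom and 1 by DESeq2 (median 0.13). Ly6d, a B lineage and epithelial member, was at 38.1 ± 22.4 and 11 ± 5.27 CPM with overlap (-1.80, edgeR adjusted p = 0.215). The B cell and plasma cell list summed to 83.4 to 324 CPM in Alb-Cre and 37.1 to 65.7 CPM in BHLKO, with Cd22 lower, and its part in the values of Ly6d and Irf5 was not tested. Ly6a, the stem cell antigen Sca-1, was at 0.21 (edgeR adjusted p = 0.388), and Gpihbp1, which carries lipoprotein lipase across capillary endothelium, was at 0.19 without passing. Of the 8 genes of the TREM family and its signalling partners 1 rose and 7 did not pass (median -0.44). Treml1, the member found in platelets, rose from 9.01 ± 0.457 to 19.1 ± 4.69 CPM (SD, n = 4 each; 1.08 ± 0.19, SE; edgeR adjusted p = 0.00535), while the platelet list that contains it summed to 269 to 325 CPM in Alb-Cre and 359 to 747 CPM in BHLKO. The signalling partners Hcst, an adaptor (-0.56, edgeR adjusted p = 0.0919), and Syk, a kinase (-0.50, 0.128), did not pass. Trem1, an activating receptor of neutrophils and monocytes, was at -1.30 (edgeR adjusted p = 0.504), with 10.8 CPM in Alb-Cre replicate 5 and 0.681 to 3.29 CPM in the other 7 libraries, and without that library its log2 fold change was 0.22.

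Among 18 partners and targets of LXR 1 rose, 0 fell and 17 did not pass, with a median of -0.05. Smpdl3a, a phosphodiesterase induced by LXR, rose from 61.6 ± 8.56 to 89.3 ± 8.79 CPM (SD, n = 4 each; log2 fold change 0.53 ± 0.11, SE; edgeR adjusted p = 0.0180). The LXR beta gene Nr1h2 was at 141 and 119 CPM (-0.25, edgeR adjusted p = 0.220). Mylip, an LXR-induced enzyme that marks the LDL receptor for breakdown, was at -0.34 (0.185), and Apoe, a lipid carrier made by macrophages, at 1925 ± 329 and 1653 ± 244 CPM (-0.22, 0.444), and neither passed. Abca1, the cholesterol exporter that is the best known LXR target, was singled out after its values were seen, at 11.8 and 11.3 CPM (-0.03, edgeR adjusted p = 0.966).

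Calls among these companions differed in how far they rested on single libraries. Leaving out each library in turn, Cx3cr1, Ptpn6 and Treml1 were called in all 8 fits, S100a4 was lost in 1 (without Alb-Cre replicate 4) and Itgal in 3 (without Alb-Cre replicate 1 and BHLKO replicates 2 and 5). Smpdl3a was lost in 5 of the 8, Fcgr4, Irf5 and Lyve1 in 6 and Izumo1r in 7. Of the called marker genes Coro1a, Cd52, Cd8a, Ccr7 and Alas2 were called in all 8 fits, Cd3d and Cd4 were lost in 3, Ptprc and Cd6 in 5, Fscn1 and Cd22 in 6 and Plet1 in 7.

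The alveolar macrophage list, a different macrophage population that also expresses Csf1r and Nr1h3, summed to 206 to 346 CPM in Alb-Cre and 287 to 458 CPM in BHLKO, and Plet1 in it rose. The dendritic cell list summed to 5118 to 6597 CPM and 3016 to 5299 CPM, and Ccr7 and Fscn1 in it fell. Endothelial markers summed to 4243 to 5244 CPM and 4403 to 5828 CPM, and a list of 3 red blood cell genes to 359.5 to 524 CPM and 723 to 901 CPM, with Alas2 in it higher in BHLKO. The part of these cells in the members' values was not tested.

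Likeness was ranked over tested genes other than the members, leaving out provisional symbols such as Gm and Rik names. The genes whose log2 CPM most resembled that of the members over the 8 libraries were taken as the 3 highest Pearson correlations, given as descriptions with no test. For the mean of the C1q chains they were Trim7 (r 0.982, rho 0.81), Tmem106a (0.961, 0.952) and Ccdc69 (0.959, 0.952). For Csf1r they were Dok3 (0.976, 0.952), Rtf2 (0.965, 0.952) and Cracr2a (0.962, 0.881). For Ly6c2 they were Cyp4f18 (0.968, 0.905), Slc24a4 (0.963, 0.929) and Cd101 (0.957, 0.857). For Treml4 they were Trp53 (0.974, 0.952), Fam168a (0.957, 0.929) and Neil3 (0.955, 0.952). Drawn from the 13517 tested genes after these exclusions, over 8 libraries, values this high were the top of a long list. The libraries also share depth and scaling.

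**Figure D4:**
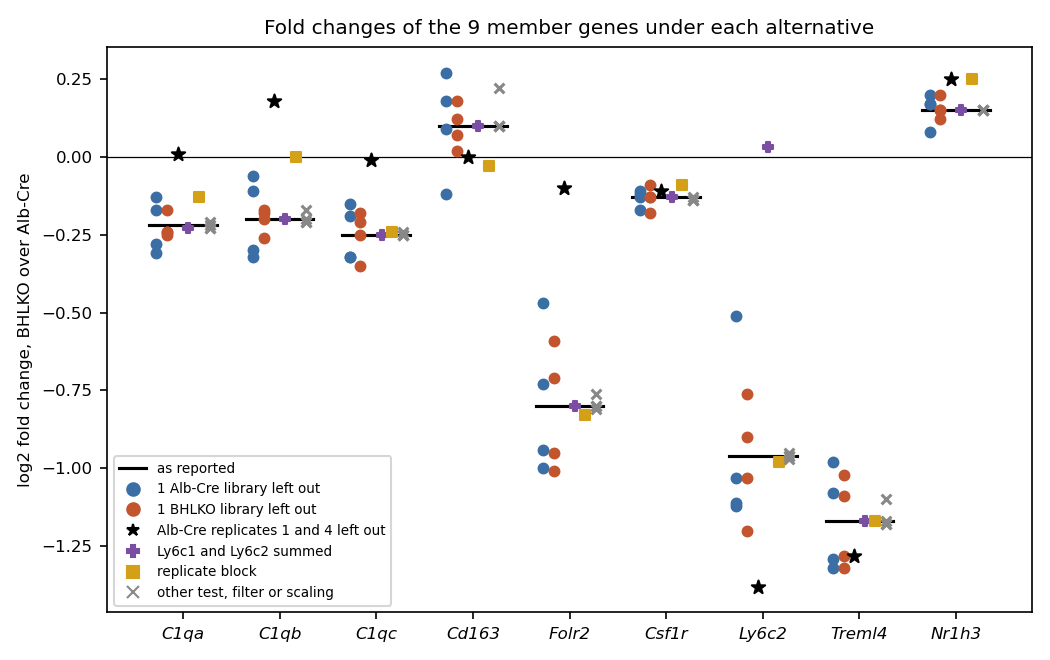
Log2 fold change of each member in the fit reported here and under the 15 alternatives, with points for settings. Treml4 stays below 0 at -1.32 to -0.98 when each library is left out in turn, C1qa and C1qb cross 0 with Alb-Cre replicates 1 and 4 left out, and Cd163 lies on both sides of 0. The value for the sum of Ly6c1 and Ly6c2 is set by the far more abundant Ly6c1.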

How the data were processed

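RNA from whole lung was measured in 4 Alb-Cre and 4 BHLKO libraries. Per the file headers, the deposited table gives raw whole-number read counts per gene. Beside them stands a normalized signal, in which the authors had scaled each library by 1 constant, and which was not used. The submitters' processing notes name cutadapt, HTSeq, DESeq2, STAR 2.5.2b and build mm10. Whether strand was kept and which annotation was counted was not given in the sources used here. The lowest gene in the table reached 6 counts in its highest library.

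Counts were tested with edgeR 4.0.16 (R 4.3.3; TMM scaling, filterByExpr by group, robust quasi-likelihood F test, no covariate). Tested genes held 99.899% of counts. The deepest and shallowest libraries had 15430372 and 6838427 counts, and low genes carry counting error on top of the spread between libraries. CPM are per 1000000 scaled counts, with 0.5 added before logs for likeness. The pipeline was tested on simulated data. Alternatives were DESeq2 1.42.0, limma-voom (limma 3.58.1), other scaling, no filter, replicate number as a block, leaving out each library, and 2 added after the data were seen. Positions are from GENCODE M21 (mm10) and windows from RefSeq.

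The members and lists were chosen with earlier results of these data known. The genes named were all members, each list's called genes and its 4 smallest p, called marker genes, the 3 most correlated genes per pattern and Ly6c1, and not every gene that this rule takes is printed. For 1 gene of the classical monocyte list the values are not reported here. The lists named as markers were those of pan-leukocytes, alveolar macrophages, dendritic cells, neutrophils, T and NK cells, B cells, platelets, red blood cells, adipocytes, endothelium and lung epithelium.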

Additional observations from a re-analysis of the deposited data

Results flagged for a closer look

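Of 106 groups of 4 libraries checked, 4 held a library whose gap to the nearest other exceeded Dixon's 95% critical share of the group's range, and chance flags about 1 group in 20. C1qa in BHLKO replicate 2 was at 187 CPM, below the other BHLKO libraries at 217 to 219.7 CPM. Smpdl3a in Alb-Cre replicate 5 was at 74.3 CPM, above the other Alb-Cre libraries at 55.6 to 58.3 CPM. Cd6, a surface protein of T cells, was at 0.681 CPM in BHLKO replicate 5, below the other BHLKO libraries at 1.72 to 1.85 CPM. The summed level of the CSF1R ligands and myeloid regulators was 1633 CPM in Alb-Cre replicate 5, against 1192 to 1228 CPM in the other Alb-Cre libraries.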

How the results depend on the processing

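Over the 15 alternatives the 9 members gave 135 log2 fold changes, of which 129 kept their direction and their side of the threshold and 6 reversed, and the number of members called was 0 in all 15. Alb-Cre replicates 1 and 4 were the highest Alb-Cre libraries for the C1q chains. With both left out, C1qa was 0.01, C1qb 0.18, Cd163 -0.00, Ly6c1 -0.04, Trim7 0.01, Tmem106a 0.01 and Ccdc69 0.34. Among the 6 is the value of 0.03 with the counts of Ly6c1 and Ly6c2 added, which is set by the far more abundant Ly6c1 and says nothing of the direction of Ly6c2. Leaving out each library in turn, the ranges were -0.31 to -0.13 for C1qa, -0.32 to -0.06 for C1qb, -0.35 to -0.15 for C1qc, -1.01 to -0.47 for Folr2, -0.18 to -0.09 for Csf1r, -1.20 to -0.51 for Ly6c2, -1.32 to -0.98 for Treml4, 0.08 to 0.20 for Nr1h3, -0.12 to 0.27 for Cd163 and -1.94 to 0.22 for Trem1. Among all tested genes 306 were called, 681 by DESeq2, 160 with the replicate block, 62 without Alb-Cre replicates 1 and 4, and 131 to 520 when each library was left out. Of the companions 10 were called, 17 by DESeq2, 5 with the replicate block, 1 without these 2 libraries, and 4 to 14 when each library was left out. Same-numbered libraries (2, 4 and 5) had deviations from their group means that correlated at 0.0383, -0.00577 and 0.022. These values show no common deviation across genes but cannot exclude a pairing, and the labels give none. With the block Cd163 was -0.03. The cause of these shifts was not tested. Treml4, Cd163 and Folr2 are limited by few counts.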
